A study of Mus musculus with 154 samples.

Results

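Liver RNA of mice with 1 copy of chromosome 3 from strain A/J was compared with liver RNA of the host strain C57BL/6J (B6). All mice labelled (B6 X B6.A3)F1 (n = 8) and all mice labelled B6 (n = 20) were taken, which are 28 mice of a series of 24 strains. The other 126 mice entered the fit but not this comparison. The label lists the sire first, so a B6 sire was crossed to a dam of the chromosome substitution strain B6.A3, and the offspring were heterozygous for an A/J chromosome 3 on an otherwise B6 background. Mice of both groups were male, 5 weeks old and fasted overnight, and B6 mice carried no A/J chromosome. Of the 13289 genes measured, 737 lie on chromosome 3 and 12552 lie elsewhere, including 47 without a position in the annotation used.

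In a chromosome substitution strain, 1 chromosome pair of a host strain is replaced by that of a donor strain. Genes on the substituted chromosome can differ because their own alleles differ (acting in cis). Genes elsewhere carry host alleles by design, and they can differ in response to the substituted chromosome (acting in trans) or to the environment. Whether the mice also carried sequence differences off chromosome 3 was not tested. The fasted liver releases glucose made from amino acids and glycerol, under hormonal control by glucagon and glucocorticoids, and many mouse liver genes also follow the pulses of growth hormone that differ between males and females.

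The totals were between 12402342 and 29437186 counted reads in (B6 X B6.A3)F1 (median 19450729) and between 6752637 and 25630807 in B6 (median 18806894), and 4 B6 mice lay below the lowest total of (B6 X B6.A3)F1. Levels are given in CPM, the counts relative to a common library size after normalization by the TMM method, and compare mice within a gene, not genes with each other. Fold changes come from a model of all mice of the series that removes 5 surrogate variables, which stand for unrecorded sources of variation, and are given on the log2 scale with their standard error (SE). A gene was called when edgeR's quasi-likelihood test gave a false discovery rate (FDR) under 0.05, adjusted separately for genes on chromosome 3 and elsewhere. Mice of a group were separate animals, and the labels do not say how they were related or when their RNA was prepared. The summed CPM of 4 Y-linked genes was between 251 and 322 in all 28 mice.

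On chromosome 3, 88 of 737 genes were called, which is 11.9% of those tested, against 404 of 12552 elsewhere, or 3.22%. The calls on chromosome 3 were 44 genes higher and 44 genes lower in (B6 X B6.A3)F1, or 5.97% of the tested genes in each direction, and the median log2 fold change over all chromosome 3 genes was 0.007. Most differences were small. The median absolute log2 fold change of the 88 genes was 0.37, and 62 of them were under 0.5. A heterozygote that lost the transcripts of 1 allele and was otherwise unchanged would lie at -1. No called gene on chromosome 3 lay below that value, and 6 lay at or above 1.

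**Figure D1:**
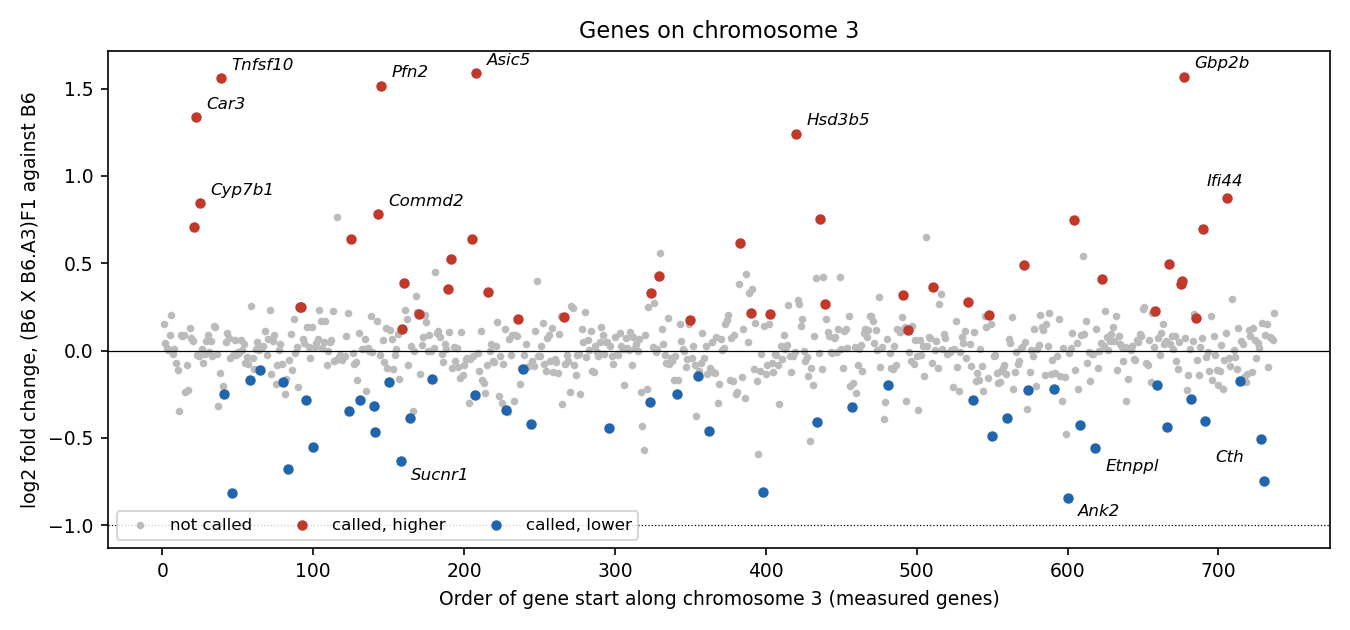
Log2 fold change of each measured gene on chromosome 3 in (B6 X B6.A3)F1 against B6 (vertical axis), in the order of gene starts along the chromosome (horizontal axis). Red and blue points are genes called higher and lower, grey points are not called, and the dotted line marks -1. Called genes lie along the whole chromosome, 6 of them at or above 1 and none below the dotted line.

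Called genes were spread over the whole chromosome. In bins of 20 Mb by gene start, the share of called genes was between 8.97% (13 of 145 genes from 100 to 120 Mb) and 16.9% (11 of 65 genes from 140 to 160 Mb), and both directions occurred in every bin but the first, where 3 genes were higher and 0 lower. Only 2 runs of 3 neighbouring called genes were found on chromosome 3. The first ran from Sucnr1 to Gm37589 through the splicing regulator Mbnl1, with 2 of its 3 genes higher, and the second held the guanylate-binding protein genes Gbp7, Gbp3 and Gbp2b, all higher.

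The levels of 5 chromosome 3 genes did not overlap between the groups, which is 0.678% of the chromosome 3 genes tested. Elsewhere 0 of 12552 genes had groups without overlap, a share of 0%. The genes were Tnfsf10, Asic5, Commd2, Pfn2 and Ank2, of which Pfn2 and Ank2 fall below the expression limit of the rule for named genes and are named here after their values were seen.

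Tnfsf10 encodes TRAIL, a ligand of death receptors. Its level was between 16.5 and 24.6 CPM in the 8 (B6 X B6.A3)F1 mice (median 22.1) and between 3.43 and 10.9 CPM in the 20 B6 mice (median 7.31). The log2 fold change was 1.56 (SE 0.09, FDR 9.3e-32), which is 2.95-fold. Asic5, an ion channel gated by bile acids, was between 37.8 and 63.0 CPM in (B6 X B6.A3)F1 (median 47.7) and between 6.9 and 27.1 CPM in B6 (median 13.1), with a log2 fold change of 1.59 (SE 0.15, FDR 1.55e-16). All 8 mice with the A/J chromosome were above all 20 B6 mice for both genes. Asic5 lies on chromosome 3 from 81982290 to 82021233 (mm10, plus strand), beside Tdo2 on the other strand.

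Commd2 and Pfn2, which lie close together with 1 measured gene between them, were also fully separated. Commd2, a member of the COMM domain family, was between 14.1 and 18.2 CPM in (B6 X B6.A3)F1 (median 15.4) and between 8.06 and 11.7 CPM in B6 (median 9.13). Its log2 fold change of 0.78 had a small error (SE 0.06, FDR 6.74e-21). Pfn2, which encodes the actin-binding protein profilin 2, was between 2.59 and 4.87 CPM against 0.563 to 2.09 CPM in B6, a log2 fold change of 1.52 (SE 0.14, FDR 3.99e-17). Commd2 starts at 57644349 and Pfn2 at 57841895 on chromosome 3. In the same region Tm4sf4, a tetraspan membrane protein gene, fell, from a median of 98.6 CPM (73.4 to 148 CPM) to 70.8 CPM (61.5 to 83.6 CPM), with a log2 fold change of -0.46 (SE 0.09, FDR 1.71e-05), and 4 of 8 mice were below every B6 mouse.

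Ank2, which encodes the membrane scaffold ankyrin B, was the only gene called lower whose groups did not overlap. It was between 1.94 and 2.68 CPM in (B6 X B6.A3)F1 and between 2.87 and 5.94 CPM in B6, a decrease of 44.2% on the fitted scale (log2 fold change -0.84, SE 0.12, FDR 1.54e-08). Rps3a1, a protein of the small ribosomal subunit, fell by less and with little spread. Its range was 79.98 to 109 CPM (median 90.97) against 89.6 to 143 CPM in B6 (median 117.4), with a log2 fold change of -0.34 (SE 0.05, FDR 1.11e-07). It was the only called gene of 61 measured cytoplasmic ribosomal protein genes, and processed copies of ribosomal protein genes may share its reads.

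**Figure D2:**
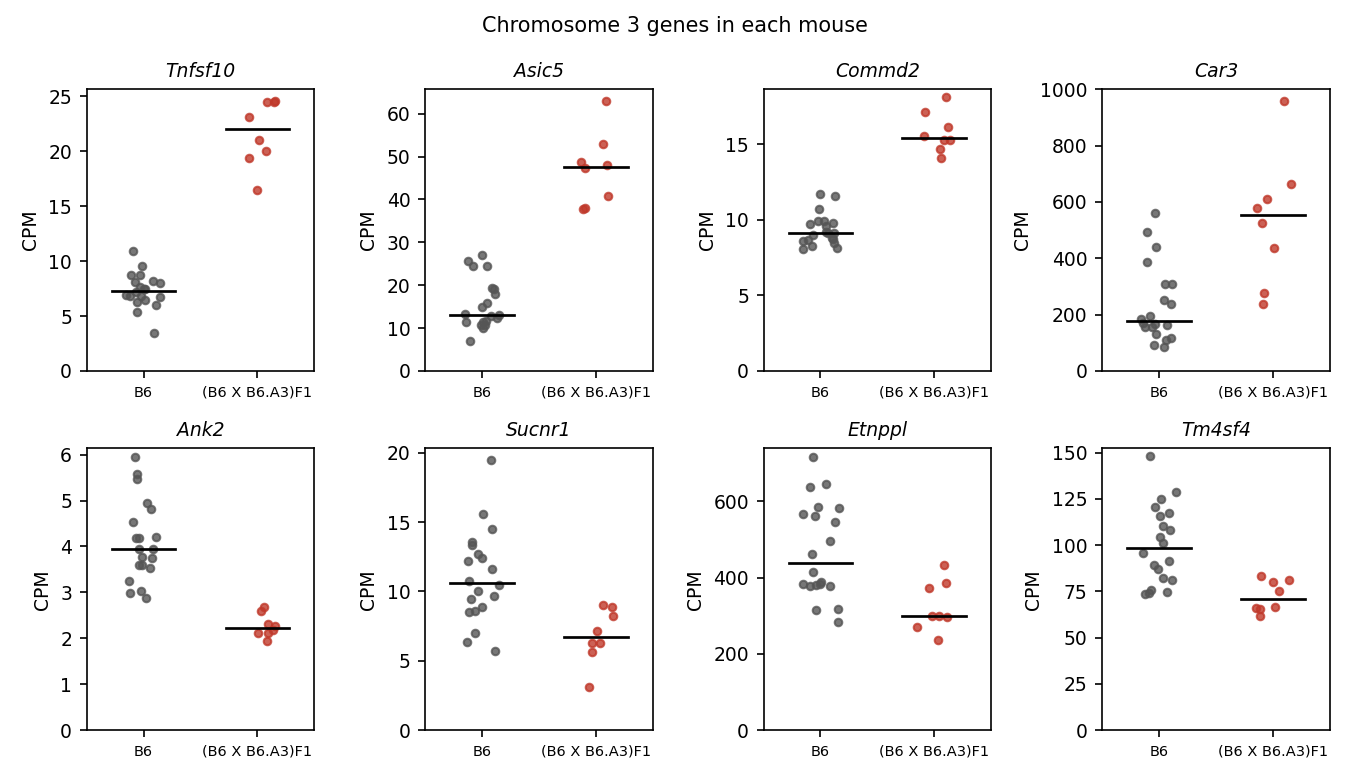
CPM (vertical axes, starting at 0) of 8 chromosome 3 genes in each of the 20 B6 mice (grey) and the 8 (B6 X B6.A3)F1 mice (red), with lines at the medians. Tnfsf10, Asic5, Commd2 and Ank2 show no overlap between the groups, while Car3, Sucnr1, Etnppl and Tm4sf4 overlap.

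Among metabolic genes on chromosome 3, Car3, Hsd3b5 and Cyp7b1, which are more abundant in male than in female mouse liver, were higher. Car3, a carbonic anhydrase of muscle, fat and liver, rose from a median of 177 CPM (86.4 to 560 CPM) to 552 CPM (236.6 to 957 CPM), with a log2 fold change of 1.34 (SE 0.20, FDR 6.95e-08), and 4 of 8 mice exceeded every B6 mouse. Hsd3b5, a male-specific ketosteroid reductase, rose from a median of 9.87 CPM (1.09 to 58.7 CPM) to 23.1 CPM (6.09 to 60.01 CPM), and Cyp7b1, the oxysterol 7-alpha-hydroxylase, from 108 CPM (13.4 to 295 CPM) to 205 CPM (95.8 to 272 CPM). Their log2 fold changes were 1.24 (SE 0.35, FDR 0.00737) and 0.85 (SE 0.30, FDR 0.0453). The B6 range of Hsd3b5 and Cyp7b1 spanned most of the range of (B6 X B6.A3)F1, and neither passed the threshold in a model without surrogate variables. Car1, another carbonic anhydrase on chromosome 3, rose by 0.71 (SE 0.18, FDR 0.00285), and Car2 had a log2 fold change of -0.03 and was not called.

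Etnppl, Cth and Tdo2 were among the chromosome 3 genes called lower. Etnppl, which breaks down phosphoethanolamine, fell from a median of 439 CPM (284.8 to 715 CPM) to 300 CPM (235 to 434 CPM), a log2 fold change of -0.56 (SE 0.14, FDR 0.00218), and each of the 8 mice was below the B6 median. Cth, which releases cysteine from cystathionine, fell from 961 CPM (641 to 1646 CPM) to 780 CPM (440 to 1007 CPM), a log2 fold change of -0.51 (SE 0.12, FDR 0.000892). Tdo2, the first enzyme of hepatic tryptophan breakdown, had a smaller log2 fold change of -0.25 (SE 0.08, FDR 0.0201). Of 26 measured metabolic enzyme and transport genes listed for chromosome 3, Cth and Tdo2 were called, both lower, and the median log2 fold change was -0.08. That is 7.69% of the list, under the 11.9% called over all chromosome 3 genes.

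The alcohol dehydrogenase cluster on chromosome 3 held 1 gene called in each direction. Adh4, a dehydrogenase of retinol and other alcohols, rose from a median of 58.7 CPM (31.7 to 102 CPM) to 79.8 CPM (52.2 to 107 CPM), a log2 fold change of 0.50 (SE 0.11, FDR 0.000377). Without surrogate variables Adh4 was not called, either over all mice or in the 28 mice alone. The pseudogene Adh6-ps1 fell by 0.44 on the log2 scale (SE 0.12, FDR 0.0083), and its reads may be shared with related genes. Adh1, Adh5 and Adh7 had log2 fold changes between 0.04 and 0.05 and were not called. None of the 7 mu-class glutathione transferases, 3 fibrinogen chains or 8 measured S100 genes, all on chromosome 3, was called, with medians of 0.07, -0.19 and -0.11.

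Chromosome 3 genes for receptors and regulators moved in both directions. Sucnr1, the receptor for succinate, fell from a median of 10.6 CPM (5.72 to 19.5 CPM) to 6.70 CPM (3.12 to 9.04 CPM), a log2 fold change of -0.63 (SE 0.15, FDR 0.00179). Il6ra, the interleukin 6 receptor chain through which acute-phase genes are induced, fell from 87.0 CPM (48.6 to 107 CPM) to 61.9 CPM (47.2 to 72.1 CPM), with a log2 fold change of -0.44 (SE 0.13, FDR 0.00881). Vcam1, an adhesion molecule for leukocytes, fell by 0.49 on the log2 scale (SE 0.11, FDR 0.000887). In each of these genes all 8 mice were below the B6 median, although the ranges overlapped. Rwdd3, a factor that promotes protein sumoylation, rose by 0.49 (SE 0.10, FDR 5.68e-05).

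Foxo1, a transcription factor that insulin inactivates and that induces gluconeogenic genes, lies on the substituted chromosome (52268336 to 52353221, plus strand). It fell from a median of 29.6 CPM (22.3 to 45.02 CPM) to 22.4 CPM (20.4 to 30.6 CPM), a log2 fold change of -0.35 (SE 0.12, FDR 0.0396), and 3 of 8 mice were below every B6 mouse. Gm38034, a provisional gene model that lies inside Foxo1 on the same strand, went the other way, from 3.94 CPM (1.73 to 5.53 CPM) to 5.94 CPM (3.23 to 8.16 CPM), with a log2 fold change of 0.64 (SE 0.17, FDR 0.00523). Reads in the overlap cannot be assigned to 1 of the genes from the counts. Crtc2, a coactivator of glucagon-induced transcription that is also on chromosome 3, had a log2 fold change of -0.20 (SE 0.07) and was not called (FDR 0.0569).

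The guanylate-binding proteins (Gbp), which are GTPases of cell-autonomous defence induced by interferon, had 3 of 5 measured members on chromosome 3 and 1 of 6 elsewhere called higher. Of all 11 measured Gbp genes, 4 were called higher and 0 lower, all 11 had a log2 fold change above 0, and the median was 0.38. Across all genes 3.7% were called, 1.94% higher and 1.76% lower. Of the called genes Gbp2b had the largest difference, from a median of 1.34 CPM (0.49 to 3.75 CPM) to 4.47 CPM (3.08 to 5.56 CPM), a log2 fold change of 1.57 (SE 0.24, FDR 1.71e-07), with 5 of 8 mice above every B6 mouse. Its neighbours Gbp3 and Gbp7 rose by 0.40 (SE 0.11, FDR 0.00708) and 0.38 (SE 0.11, FDR 0.00789), and Gbp11 on chromosome 5 by 0.76 (SE 0.16, FDR 0.00327). The other chromosome 3 members, Gbp2 and Gbp5, had log2 fold changes of 0.07 (FDR 0.836) and 0.05 (FDR 0.987). Gbp genes are close relatives, and reads that they share may have been split or dropped in counting. Without surrogate variables 2 of the 11 genes were called.

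Interferon-induced genes often carry an element to which interferon-activated factors bind, and the 250 bases before the start of these 3 neighbours are shown because they moved together. The sequences are those of the B6 reference from RefSeq (GRCm38.p6, plus strand, chr3:142530086-142530335 for Gbp7, chr3:142559794-142560043 for Gbp3 and chr3:142594597-142594846 for Gbp2b), so they do not show the A/J allele. Capitals mark each match to GAAANNGAAA or its reverse complement TTTCNNTTTC, in which N is any base.
Gbp7: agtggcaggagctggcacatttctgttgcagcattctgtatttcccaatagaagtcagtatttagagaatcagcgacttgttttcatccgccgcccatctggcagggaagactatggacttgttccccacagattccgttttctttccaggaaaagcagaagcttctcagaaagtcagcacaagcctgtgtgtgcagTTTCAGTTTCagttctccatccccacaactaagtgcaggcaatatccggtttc
Gbp3: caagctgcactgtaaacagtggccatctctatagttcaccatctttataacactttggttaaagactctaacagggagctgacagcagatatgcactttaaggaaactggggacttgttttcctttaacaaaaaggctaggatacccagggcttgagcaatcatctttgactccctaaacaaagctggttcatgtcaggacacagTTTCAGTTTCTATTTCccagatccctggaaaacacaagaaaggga
Gbp2b: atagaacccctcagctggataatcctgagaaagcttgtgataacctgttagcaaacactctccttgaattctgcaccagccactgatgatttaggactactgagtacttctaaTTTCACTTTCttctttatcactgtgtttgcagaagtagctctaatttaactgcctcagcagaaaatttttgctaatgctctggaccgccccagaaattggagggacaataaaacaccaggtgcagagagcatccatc

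Each of the 3 windows held the element, with 1 match in Gbp7 and in Gbp2b and 2 overlapping matches in Gbp3. For Gbp3 the table holds another start, whose window had no match. Of the genes with a promoter in that table, 936 of 27025 held a match (3.46%). Among the interferon-stimulated genes below, 14 of 29 with a promoter held one, made up of 4 of 9 called members and 10 of 20 members that were not called.

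Of 39 measured interferon-stimulated genes, 11 were called higher and 0 lower, or 28.2% against 3.7% over all genes. Of the 39, 4 lie on chromosome 3, where 11.9% of genes were called, and Gbp3, Gbp7 and Ifi44 from there were among the 11. All 39 log2 fold changes were above 0, with a median of 0.29 against a median of 0.001 for genes elsewhere. Ifi44, an interferon-induced gene on chromosome 3, rose from a median of 3.20 CPM (1.55 to 5.04 CPM) to 5.81 CPM (3.87 to 7.496 CPM), a log2 fold change of 0.87 (SE 0.12, FDR 1.91e-09). Elsewhere, Iigp1, an immunity-related GTPase, rose by 0.49 (SE 0.10, FDR 0.00258), Xaf1, a pro-apoptotic factor, by 0.47 (SE 0.10, FDR 0.00327), and the immunoproteasome subunit Psmb9 by 0.45 (SE 0.13, FDR 0.0353).
In Iigp1 the groups overlapped, with 299 to 519.96 CPM (median 426) against 165.4 to 479 CPM in B6 (median 322), and 3 of 8 mice were above every B6 mouse. In the 28 mice alone with 5 surrogate variables 4 members of the list were called, without surrogate variables 2, and without replicate 5 of (B6 X B6.A3)F1 5 members were called, and without replicate 4 the count was 7, with 0 called lower each time. The summed level of 10 Kupffer cell and macrophage markers had a median of 473 CPM in (B6 X B6.A3)F1 and 454 CPM in B6, with overlapping ranges. None of the 10 was called, 9 had a log2 fold change above 0, and the median was 0.10. The summed level of 6 lymphocyte markers had a median of 30.3 CPM against 30.1 CPM, while the median of their fitted log2 fold changes was -0.22, with 4 of 6 below 0, 0 called and 2 at an unadjusted p under 0.05. The part of either cell type in the interferon result was not tested.

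Elsewhere in the genome 214 genes were called higher (1.7% of those tested) and 190 lower (1.51%). The median absolute log2 fold change of these 404 genes was 0.32, 300 were under 0.5 and 28 were at or above 1. The count depended on the model. It was 54 without surrogate variables and 20 in a model of the 28 mice alone without surrogate variables, and all of the 54 and all of the 20 were among the 404. It was 149 without replicate 2 of (B6 X B6.A3)F1, 156 without replicate 1, 210 without replicate 4, 240 without replicate 5 and 263 without replicate 3. The share of called genes on the other chromosomes ran from 1.79% on chromosome 9 to 4.67% on chromosome 18, apart from the mitochondrial genome (0 of 17 genes) and the Y chromosome (1 of 6). Runs of at least 3 neighbouring called genes off chromosome 3 were found only in the major urinary protein cluster on chromosome 4, where 5 genes from Mup1 to Mup12 and 4 genes from Mup14 to Mup17 were all higher.

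Of 20 measured genes of gluconeogenesis, the pathway that makes glucose in a fast, and its regulators, 5 were called lower and 0 higher. The share called was 25%, against 3.7% over all genes, and the list median was -0.15. Lpin1, a phosphatidate phosphatase and coactivator induced by fasting, fell from a median of 306 CPM (64.6 to 547 CPM) to 90.6 CPM (29.7 to 208 CPM), a log2 fold change of -1.26 (SE 0.32, FDR 0.0148). Ppargc1a, the coactivator PGC-1alpha that induces gluconeogenic genes, fell from 41.2 CPM (14.1 to 74.4 CPM) to 19.9 CPM (15.5 to 32.5 CPM), a log2 fold change of -0.98 (SE 0.19, FDR 0.00109). All 8 mice were below the B6 median of both genes, but some B6 mice lay within or below the range of (B6 X B6.A3)F1.
The other called members were Got1, a transaminase that feeds oxaloacetate into the pathway (log2 fold change -0.60, SE 0.17, FDR 0.03), Hnf4a, a master regulator of hepatocyte genes (-0.29, SE 0.07, FDR 0.0157), and Foxo1 from the substituted chromosome. The enzymes that set the rate of the pathway were not called. Pck1, which makes phosphoenolpyruvate, had a log2 fold change of -0.20 (SE 0.12, FDR 0.423), and G6pc, which releases free glucose, of -0.01 (SE 0.19, FDR 0.995). Without replicate 1 of (B6 X B6.A3)F1, 1 member of the list was called, without replicate 2 there were 2, and without replicate 4, without the 4 shallow B6 mice or with 10 surrogate variables there were 3, and in the 28 mice alone without surrogate variables there were 2, all lower.

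Of 40 measured enzymes of amino acid breakdown and the urea cycle, 13 were called lower and 0 higher. The share called was 32.5%, against 3.7% over all genes. Of the 40, 3 lie on chromosome 3, where 11.9% of genes were called, and Cth and Tdo2 from there were among the 13. The log2 fold change was below 0 in 36 of the 40, and the median was -0.15. The largest falls were in Tat, which starts tyrosine breakdown and is a classical target of glucocorticoids, Got1, and the serine dehydratases Sds and Sdsl. Tat fell from a median of 2749.8 CPM (1331 to 3765 CPM) to 1608 CPM (989 to 2299 CPM), a log2 fold change of -0.65 (SE 0.18, FDR 0.029), and Sds from 248.8 CPM (123.7 to 372 CPM) to 164.6 CPM (102.8 to 271.03 CPM), a log2 fold change of -0.54 (SE 0.15, FDR 0.0227). Sdsl had a log2 fold change of -0.53 (SE 0.15, FDR 0.03). The urea cycle enzymes Cps1 and Arg1 were called with smaller differences of -0.36 (SE 0.09, FDR 0.0148) and -0.26 (SE 0.06, FDR 0.0141).
Each of these genes had overlapping groups. The number of called members was 1 without surrogate variables, 6 with 10 of them, 0 in the 28 mice alone without and 5 with 5 surrogate variables, 6 without the 4 shallow B6 mice, and 2, 4, 3 and 7 without replicate 1, 2, 4 and 7 of (B6 X B6.A3)F1, with 0 called higher each time. The list median was between -0.18 and -0.11 in every setting tried.

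Glucocorticoid responsive genes included 4 called lower and 1 higher of 22 measured, or 22.7% against 3.7% over all genes, with a median of -0.20. Fkbp5, a chaperone partner that the glucocorticoid receptor induces, fell from a median of 128 CPM (58.5 to 195 CPM) to 78.7 CPM (32.4 to 112 CPM), a log2 fold change of -0.75 (SE 0.19, FDR 0.0166), and Lpin1, Tat and Tdo2 are also on this list. The member called higher was Nr3c1, the glucocorticoid receptor itself, at 0.16 (SE 0.05, FDR 0.03). The list had 1 called member without surrogate variables, 0 in the 28 mice alone without surrogate variables, 2 with 10 of them and 2 without the 4 shallow B6 mice, and 0, 2 and 3 without replicate 1, 2 and 5 of (B6 X B6.A3)F1. Of 21 measured liver transcription factors, Foxa3, Nr1i2 and Hnf4a were called lower and none higher, or 14.3% against 3.7% over all genes. The list median was -0.01, and 9 of the 21 lay above 0. None of the 3 was called in the 28 mice alone without surrogate variables. Foxa3, a forkhead factor of hepatocytes, had a log2 fold change of -0.38 (SE 0.09, FDR 0.0121) and Nr1i2, the xenobiotic receptor PXR, of -0.33 (SE 0.08, FDR 0.0101).

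**Figure D3:**
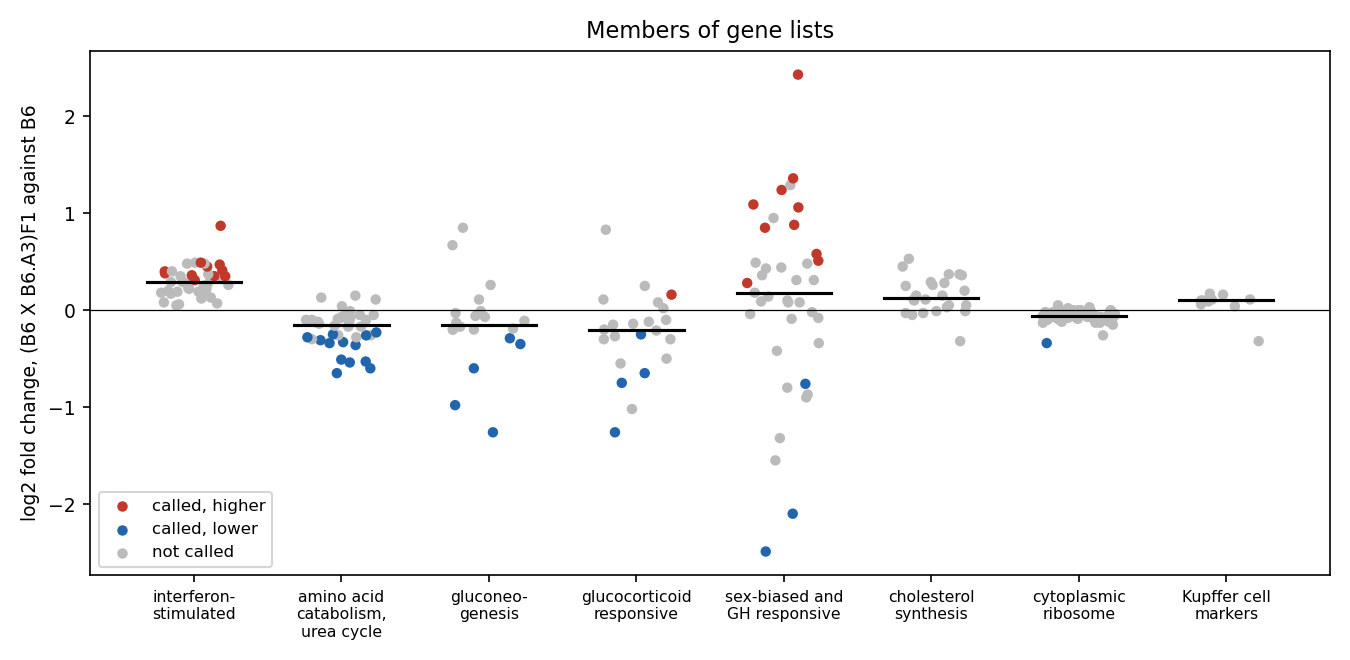
Log2 fold change in (B6 X B6.A3)F1 against B6 (vertical axis) of each measured member of 8 gene lists (horizontal axis), with black lines at the list medians. Members called higher are red, called lower blue and not called grey. All 39 interferon-stimulated genes lie above 0, and 36 of 40 genes of amino acid catabolism and the urea cycle lie below it.

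Of 39 measured sex-biased and growth hormone responsive genes, 10 were called higher and 3 lower. The share called was 33.3%, against 3.7% over all genes, and the median log2 fold change was 0.18. The genes called higher encode the major urinary proteins (Mup), which male mice excrete as pheromone carriers, the male-biased enzymes Hsd3b5, Cyp7b1 and Elovl3, and the growth hormone receptor Ghr. The genes called lower included Cyp2a4, a steroid hydroxylase that is female-biased in mouse liver, and the others are not named here. Of the 39 genes, 25 lay above 0 and 14 below. The list holds male-biased, female-biased and signalling genes together, so its median and share do not show a shift toward either sex.
Mup17 rose from a median of 4.82 CPM (1.19 to 99.9 CPM) to 40.5 CPM (2.98 to 136.4 CPM), a log2 fold change of 2.43 (SE 0.53, FDR 0.00483), and Mup11 from 115 CPM (17.97 to 1049.9 CPM) to 373.7 CPM (99.1 to 809 CPM), a log2 fold change of 1.36 (SE 0.39, FDR 0.03). Outside the list, Mup16, Mup8 and the neighbouring transcript Gm13775 rose by 1.40 (SE 0.39, FDR 0.0253), 1.08 (SE 0.26, FDR 0.0101) and 1.11 (SE 0.26, FDR 0.00703). Mup genes are nearly identical copies, so that the split of reads among them is uncertain.
Cyp2a4 fell from a median of 2.69 CPM (0.179 to 27.6 CPM) to 0.480 CPM (0.390 to 11.7 CPM), a log2 fold change of -2.49 (SE 0.72, FDR 0.0315). The B6 mice alone covered the whole range of (B6 X B6.A3)F1, in which replicate 6 had the highest level. Igf1, the main target of growth hormone in the liver, had a log2 fold change of 0.08 (SE 0.08) and was not called (FDR 0.647).
The number of called members was 0 without surrogate variables, both over all mice and in the 28 mice alone, and 2, 6, 7 and 7 without replicate 2, 4, 1 and 5 of (B6 X B6.A3)F1. The list median without surrogate variables was 0.16.

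**Figure D4:**
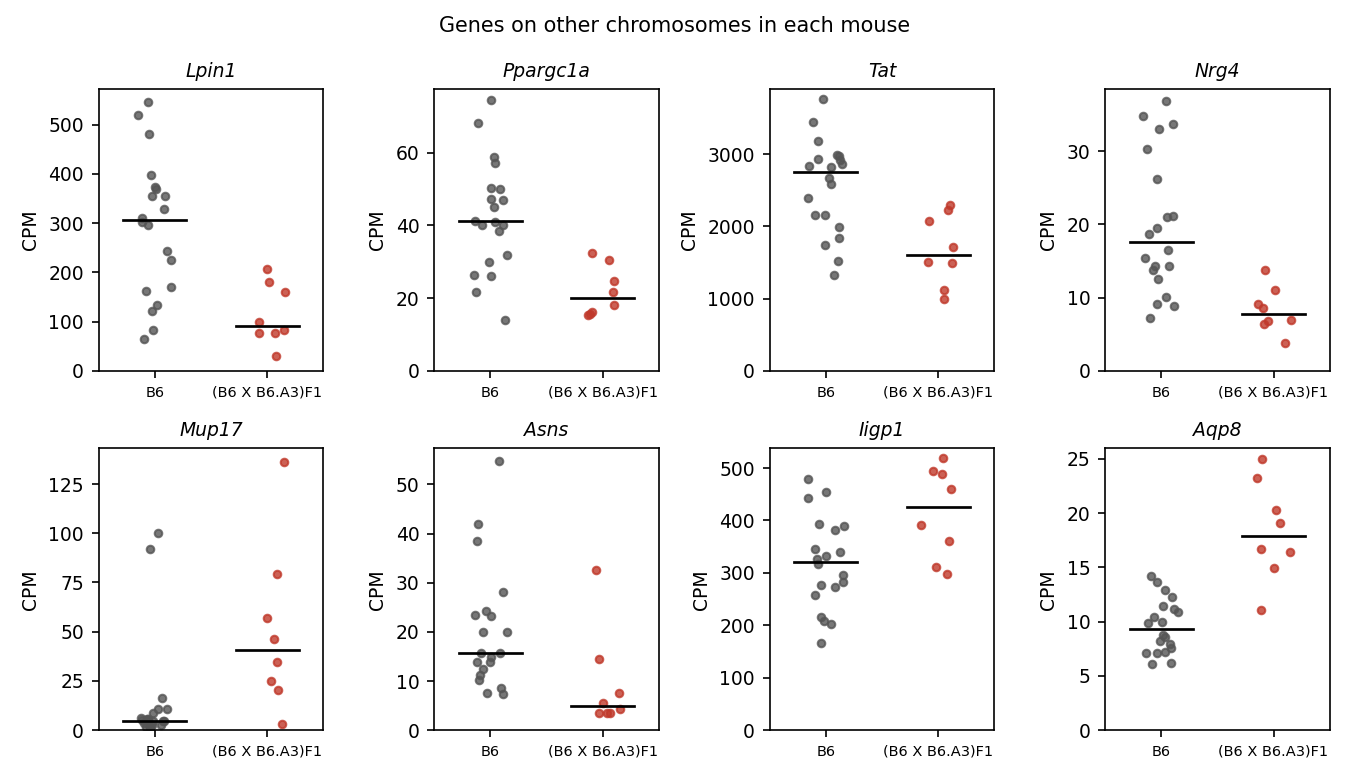
CPM (vertical axes, starting at 0) of 8 genes on other chromosomes in each of the 20 B6 mice (grey) and the 8 (B6 X B6.A3)F1 mice (red), with lines at the medians. The groups overlap in every panel, and the B6 mice spread widely in Lpin1, Nrg4, Mup17 and Asns.

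Nrg4 and Aqp8 were among the calls elsewhere with the smallest p-values. Nrg4, a growth factor of the neuregulin family, fell from a median of 17.6 CPM (7.27 to 36.8 CPM) to 7.76 CPM (3.79 to 13.8 CPM), a log2 fold change of -1.23 (SE 0.20, FDR 2.99e-05), with 4 of 8 mice below every B6 mouse. Aqp8, a water channel of the bile canaliculus, rose from 9.34 CPM (6.10 to 14.2 CPM) to 17.9 CPM (11.1 to 25.04 CPM), a log2 fold change of 0.93 (SE 0.15, FDR 3.31e-05), with 7 of 8 mice above every B6 mouse. Both were also called without surrogate variables. Slc25a32, the mitochondrial folate carrier, fell by 0.52 on the log2 scale (SE 0.09, FDR 0.000168), and Colec12, a scavenger receptor, rose by 0.37 (SE 0.06, FDR 3.31e-05).
Asns, asparagine synthetase and a target of the amino acid stress factor ATF4, fell from a median of 15.7 CPM (7.36 to 54.8 CPM) to 4.92 CPM (3.52 to 32.5 CPM), a log2 fold change of -1.35 (SE 0.30, FDR 0.00483), with 5 of 8 mice below every B6 mouse. Of 26 measured genes of the ATF4 response, Asns and Cth were called, both lower, or 7.69% against 3.7% over all genes. Lepr, the leptin receptor, had a log2 fold change of -1.22 (SE 0.33, FDR 0.0216), Cyp17a1, a steroid 17-hydroxylase, of -1.11 (SE 0.30, FDR 0.0239), and Fam107a, an actin-associated stress gene, of -1.47 (SE 0.45, FDR 0.0445). Serpina12, which encodes the adipokine vaspin, was higher by 1.09 (SE 0.33, FDR 0.0422). In Lepr and Cyp17a1, 2 of 8 mice lay above the B6 median, and all 8 lay below it in Fam107a.

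Drug-metabolizing cytochromes P450 and their reductase included 3 genes called higher and 2 lower of 34 measured, or 14.7% against 3.7% over all genes. Por, the reductase that supplies electrons to microsomal P450 enzymes, fell from a median of 408 CPM (241.6 to 625 CPM) to 292 CPM (182 to 332 CPM), a log2 fold change of -0.59 (SE 0.13, FDR 0.00343). Cyp1a2, which oxidizes caffeine and aromatic amines, rose from 158 CPM (74.4 to 248 CPM) to 221 CPM (180 to 256 CPM), a log2 fold change of 0.49 (SE 0.11, FDR 0.00483), and all 8 mice were above the B6 median. In bile acid synthesis, Cyp7b1 and Hsd3b7 were called higher of 20 measured genes, or 10% of the list. Hsd3b7, which converts the sterol ring early in the pathway and lies on chromosome 7, rose from 259 CPM (172 to 312 CPM) to 321 CPM (284.03 to 345 CPM), a log2 fold change of 0.33 (SE 0.07, FDR 0.00145), with 6 of 8 mice above every B6 mouse.

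Several pathways had no called gene, while 3.7% were called over all genes. None of the 24 genes of cholesterol synthesis, 22 lipoprotein genes, 23 NRF2 and glutathione genes, 26 genes of endoplasmic reticulum stress or 24 cell cycle genes was called, with medians between -0.11 and 0.13. Lists of this size would hold few called genes or none at a share of 3.7%. At an unadjusted p under 0.05 in edgeR's test, 6, 6, 6, 5 and 1 of them passed in that order, while 17.7% passed over all genes. DESeq2 called 1 gene each of cholesterol synthesis and of the NRF2 list. Of 34 genes of PPARalpha and fatty acid oxidation, 2 were called, both lower (Plin5 at -0.42 and Acadl at -0.26), with a median of -0.11, and of 19 genes of fatty acid synthesis 2 were called, both lower. Of 60 respiratory chain genes 1 was called in each direction. Glycolysis and glycogen (23 genes) had 1 call, lower, insulin signalling (20) 1, lower, which was Foxo1, the circadian clock (20) 1, higher, coagulation and complement (34) 1, higher, and acute-phase proteins (27) 1 in each direction. None of the measured markers of liver endothelial cells (9), stellate cells and fibroblasts (10), cholangiocytes (4), erythroid cells (6) and neutrophils (2) was called, and of 7 hepatocyte markers Cps1 and Hnf4a were, both lower. Of 6 adipose tissue markers only Car3 was among the measured genes. In bulk RNA, fewer cells of a type and less RNA per cell cannot be told apart.

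The effect of chromosome 3 was also measured in mice that the comparison with B6 does not use. These were 13 mice that carried the A/J chromosome 3 beside a second A/J chromosome, namely (B6.A5 X B6.A3)F1 (n = 5), (B6.A10 X B6.A3)F1 (n = 5) and (B6.A8 X B6.A3)F1 (n = 3), each set against its partner with the second chromosome alone, which were 23 mice in all. A mouse placed in (B6.A5 X B6.A3)F1 had a label without the F1 suffix and was assumed to belong to this cross. Surrogate variables and dispersions were estimated over all mice together. The A/J chromosome 3 came from a B6.A3 dam in every group that carried it, while B6 mice and the partners had B6 dams. An influence of the dam and the offspring's own chromosome 3 therefore cannot be told apart, here or against B6. Averaged over the 3 crosses, 70 of the 737 chromosome 3 genes were called, or 9.5%, and 3 of the 12552 genes elsewhere, or 0.0239%.

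Chromosome 3 genes mostly kept their direction there, but with smaller differences. Taken in the called direction, the median log2 fold change of the 88 called genes was 0.28, 0.13 and 0.18 beside A5, A10 and A8. Against B6, where these genes had been chosen, it was 0.37. Of the 88 genes called against B6, 75 (85.2%) had the same direction in the mean of the crosses, against 385 of 649 chromosome 3 genes that were not called (59.3%). Beside A5, A10 and A8 the shares were 97.7%, 69.3% and 73.9%, against 67.5%, 51.2% and 47.6% of genes not called. Genes measured in the same mice are not independent replicates, so no interval is given for these shares. Of the 404 genes called elsewhere, 243 (60.1%) had the same direction in the mean, against 52.1% of the genes that were not called. Beside A5 the share was 90.1%, against 64.1% of genes not called, and beside A10 and A8 it was 39.4% each, against 46.7% and 45.3%.

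Asic5 was higher with the A/J chromosome 3 in each cross without overlap. It was between 41.1 and 61.1 CPM beside A5, between 46.5 and 61.2 CPM beside A10 and between 37.6 and 62.1 CPM beside A8, and its partners reached at most 30.4 CPM. Its log2 fold changes were 1.97 (SE 0.23), 1.84 (SE 0.22) and 1.52 (SE 0.26). Tnfsf10 was higher in all 3 crosses as well, at 1.60, 1.04 and 0.75, and its difference beside A8 was smaller than that against B6 (interaction -0.81, FDR 0.0046). Rps3a1 had log2 fold changes of -0.36, -0.20 and -0.37, Sucnr1 of -0.13, -1.26 and -0.99, and Adh6-ps1 of -0.36, -1.27 and -0.74. Pfn2 had log2 fold changes of 1.74, 1.62 and 0.77, and Ank2 of -0.80, -0.73 and -0.38. Car3 was at 1.20, 0.53 and 0.57, whereas Hsd3b5 was at 1.04, -0.40 and 0.70. Other chromosome 3 genes had little difference beside A10 and A8. Etnppl was at -0.25, -0.01 and -0.11, Cth at -0.27, -0.01 and -0.13, and Vcam1 at -0.26, 0.05 and 0.08. Adh4 was at 0.36, 0.09 and 0.07, and Gbp2b at 1.24, 0.34 (SE 0.35) and 0.18 (SE 0.43). None of Etnppl, Cth, Vcam1, Adh4 and Gbp2b had an interaction with an FDR under 0.05.

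Of the genes elsewhere, H2-Q4 and Gm47283 had lower fitted levels with the A/J chromosome 3 against B6 and in each cross. H2-Q4, a nonclassical class I gene of the major histocompatibility complex on chromosome 17, was between 8.29 and 16.3 CPM in (B6 X B6.A3)F1 (median 10.6) and between 10.7 and 18.5 CPM in B6 (median 16.1), a log2 fold change of -0.53 (SE 0.08, FDR 1.43e-05). Beside A5, A10 and A8 its log2 fold changes were -0.58, -0.75 and -0.66, and in each cross all mice with the A/J chromosome 3 were below all partners. Of 18 measured class I and class II genes, H2-Q4 was called lower and B2m, the light chain of class I, higher, at 0.16. Together they made 11.1% of the list, against 3.7% called over all genes.
Gm47283, a protein-coding gene model on the Y chromosome that was named after its values were seen, was between 0.617 and 4.05 CPM in (B6 X B6.A3)F1 (median 1.60) and between 1.61 and 10.1 CPM in B6 (median 4.56), a log2 fold change of -1.45 (SE 0.25, FDR 6.89e-05). Its log2 fold change beside A5 was -1.12 (SE 0.39), where the groups overlapped, with 0.658 to 3.001 CPM against 1.76 to 6.08 CPM in the partners. Beside A10 and A8 the log2 fold changes were -3.28 (SE 0.50) and -2.02 (SE 0.53). Beside A10 its highest level was 0.603 CPM and its partners' lowest was 2.39 CPM. Beside A8 the levels were 0.473, 0.682 and 0.932 CPM, and the partners' lowest was 1.59 CPM. The third gene called elsewhere in the mean of the crosses was Aldoc, an aldolase, which was not called against B6 (log2 fold change 0.29, SE 0.14, FDR 0.271).

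**Figure D5:**
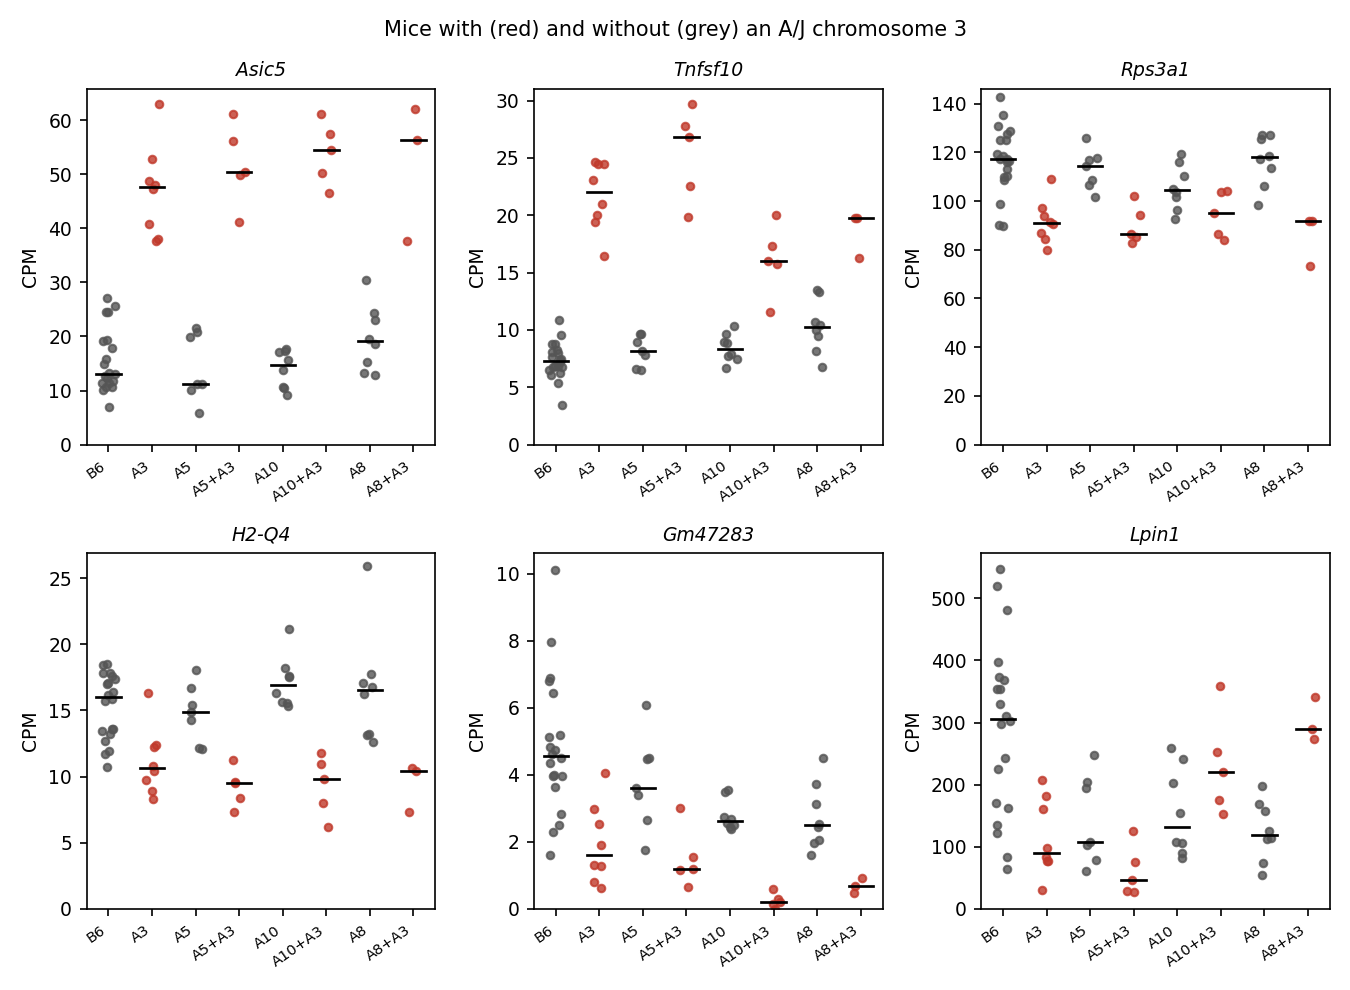
CPM (vertical axes, starting at 0) of 6 genes in each mouse with (red) and without (grey) the A/J chromosome 3, for B6 and for the backgrounds with A5, A10 or A8, with lines at the medians. Asic5 is higher and H2-Q4 and Gm47283 are lower with the A/J chromosome 3 in each pair, while Lpin1 has a lower median with it against B6 and beside A5 and a higher one beside A10 and A8.

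Lpin1, which fell against B6, had log2 fold changes of -1.05 (SE 0.43) beside A5, 0.50 (SE 0.40) beside A10 and 1.61 (SE 0.48) beside A8, Ppargc1a of -0.96, -0.35 and 0.32, Tat of -0.59, 0.19 and 0.73, and Fkbp5 of -0.34, 0.40 and 0.65. The list median of gluconeogenesis was -0.16, -0.04 and 0.33 beside A5, A10 and A8, that of amino acid catabolism and the urea cycle -0.07, -0.10 and 0.22, and that of glucocorticoid responsive genes -0.20, 0.09 and 0.30. Interferon-stimulated genes had medians of 0.09, -0.35 and 0.15, and Gbp genes of 0.22, -0.50 and 0.03. Asns was at -1.40, -1.08 and -0.21. Sex-biased and growth hormone responsive genes had medians of 0.11, -0.17 and 0.05. Mup17, which rose by 2.43 against B6, was at 0.09 (SE 0.79), -0.94 (SE 0.81) and 0.17 (SE 0.94) beside A5, A10 and A8. Mup11, which rose by 1.36, was at -0.44 (SE 0.58), -0.71 (SE 0.57) and -0.90 (SE 0.72), and Cyp2a4, which fell by 2.49, at -0.22 (SE 1.12), -0.02 (SE 0.88) and -0.06 (SE 1.81). No interaction of these 3 genes passed the threshold, with FDR values between 0.0624 and 1.
The difference between these effects and those against B6 was tested with the interaction terms. Beside A5, 0 of 404 genes called elsewhere and 0 of 88 on chromosome 3 had an interaction with an FDR under 0.05 in edgeR's test (48 and 4 at an unadjusted p under 0.05). Over all genes 0 of 12552 elsewhere and 0 of 737 on chromosome 3 had one. Beside A10 there were 73 and 4, against 150 and 5 over all genes, and beside A8 127 and 8, against 969 and 29 over all genes. The study itself, with a similar model, also reported 0 interactions for the A5 cross. It reported fewer in total for the A10 and A8 crosses, and the reason was not tested. The study grouped genes on either substituted chromosome together for the adjustment, while only chromosome 3 was set apart here. The A8 cross held only 3 mice. The genes had been chosen for their difference from B6, and that difference also enters the interaction.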

How the data were processed

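RNA from the livers of the mice was sequenced, and the authors deposited whole-number counts of reads per gene for each mouse, as a single table already filtered to expressed genes. Per the submitters' processing notes TopHat2, HTSeq and edgeR were used with the mm10 build. The study's methods state that reads that did not align to mm10 were aligned to a genome individualized for A/J. Remaining differences in alignment between alleles were not tested here. No column of the table was left out (0 columns not used).

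From these counts, fold changes were fitted in R 4.3.3 with edgeR 4.0.16 (TMM normalization, quasi-likelihood test) over all mice. The model held a term for each of 8 substituted chromosomes, a term for each of 15 pairs of them, and 5 variables estimated by sva 3.50.0. FDR values were computed by the Benjamini-Hochberg method separately for chromosome 3 and elsewhere. The steps were tested on simulated data. Genes were named where the average log2 CPM was at least 2, as the 15 largest changes and the 5 smallest p-values among calls on chromosome 3 and elsewhere, up to 4 called members (or 2 where none was called) per list, every measured member of a chromosome 3 family, and 5 genes on chromosome 3 and 5 elsewhere with the smallest p beside a second chromosome. Pfn2, Ank2, Mbnl1, Gm37589, Gm47283, Aldoc, Arg1, Elovl3, G6pc, Pck1, Ghr, Igf1 and Nr3c1 fall outside this rule and were named after their values were seen. Some genes that meet the rule are not reported here. The lists and the comparison were chosen with earlier results of these data known. Counts without 1 replicate, other normalizations, DESeq2 1.42.0, other numbers of surrogate variables and filters were tried as alternatives. Counting error is small at these depths for all but the lowest genes, and the spread between mice sets the precision. Promoter sequences and their motif matches came from RefSeq tables of GRCm38.p6.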

Additional observations from a re-analysis of the deposited data

Results flagged for a closer look

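In the following results the effect of chromosome 3 beside a second substituted chromosome differed from its effect against B6, by an edgeR test of the interaction at an FDR under 0.05. The values are interaction terms on the log2 scale, where a positive value means a higher effect of chromosome 3 beside the second chromosome. All genes were also chosen for their difference from B6, which enters the interaction.

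Beside A8, genes of fasting and hepatocyte regulation had positive terms, which were 2.87 for Lpin1, 1.3 for Ppargc1a, 1.38 for Tat, 0.99 for Sds, 1.02 for Got1, 1.4 for Fkbp5, 0.74 for Foxo1, 0.46 for Hnf4a, 0.88 for Foxa3, 0.68 for Nr1i2, 1.08 for Por and 1.04 for Il6ra. Nrg4 and Slc25a32 were at 1.42 and 0.95. The terms were negative for Tnfsf10 (-0.81), Commd2 (-0.52), Colec12 (-0.39) and Gm13775 (-1.59).

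Beside A10, genes induced by interferon had negative terms, which were -1.88 for Gbp11, -0.92 for Gbp3, -0.89 for Gbp7, -0.94 for Iigp1 and -0.73 for Xaf1. Adh6-ps1, Colec12 and Gm13775 were also negative, at -0.83, -0.41 and -1.84. Positive terms were found for Nrg4 (1.38), Fkbp5 (1.15), Slc25a32 (0.71), Nr1i2 (0.65) and Hnf4a (0.48).

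In 3 genes 1 mouse of (B6 X B6.A3)F1 stood far from the other 7, and in each it was replicate 6. It had the highest level of Cyp2a4 (11.7 CPM, the next 4.13 CPM) and of Asns (32.5 CPM, the next 14.5 CPM), and the lowest of Adh6-ps1 (6.68 CPM, the next 10.6 CPM). Chance alone marks about 1 in 20 groups in this way, and the highest and the lowest mouse were examined in each of 61 genes.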

How the results depend on the processing

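No paired analysis was possible because replicate numbers were given to the mice in accession order and do not pair mice across strains. The 88 calls on chromosome 3 became 52 in the 28 mice alone without surrogate variables and 57 at an FDR of 0.01, and were between 71 and 104 without 1 replicate of (B6 X B6.A3)F1. The 404 calls elsewhere became 54 without surrogate variables, 20 in the 28 mice alone without and 205 with 5 surrogate variables, 59 at an FDR of 0.01, and 254 without the 4 shallow B6 mice, a setting chosen after the data were seen. Without 1 replicate they were between 149 and 493, with 156, 149, 263, 210 and 240 calls without replicate 1, 2, 3, 4 and 5. Without surrogate variables, 64 of 68 calls on chromosome 3 and 54 of 54 elsewhere were among those reported. The share of called genes with the same direction beside a second chromosome was 91.2% without surrogate variables on chromosome 3, and elsewhere 72.2% without and 66.2% with 10 surrogate variables. In the other settings tried, which were 10 surrogate variables, DESeq2's size factors and test, a filter on low counts, another edgeR dispersion mode and adjustment over all genes together, both counts were within 1.5 times those reported. Of the genes named in the text, 61 were followed through these settings, 26 on chromosome 3 and 35 elsewhere (of which Aldoc alone was not called), and none of the 61 reversed its direction. Without surrogate variables 7 of the 26 and 20 of the 35 no longer passed the threshold, and the cause was not tested. Leaving out 1 replicate removed the call at least once for 5 and 16 of them. Genes of a few CPM rest on few reads in the shallowest B6 mouse.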

Other observations

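The list of major histocompatibility complex genes had a median log2 fold change of 0.15, and 16 of its 18 measured members lay above 0, while H2-Q4 lay at -0.53. Cytoplasmic ribosomal protein genes had a median of -0.06, with 54 of 61 members below 0, and Rps3a1 alone was called. Neither median was tested.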
